A study of Mus musculus with 11 samples.

Results

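The miR-183 cluster consists of 3 microRNA hairpins on mouse chromosome 6, those of miR-183 itself, miR-96 and miR-182. It was followed here through the main arms of its hairpins, mmu-miR-183-5p, mmu-miR-96-5p and mmu-miR-182-5p, which were chosen by name. These are 3 of the 2304 small RNAs in the count table, of which 1592 are mature miRNAs and 712 are endogenous siRNAs, and all 3 members had reads in all 11 libraries. The table covers adult mice of the C57BL/6 strain. Sperm from the cauda epididymis came from wild type (WT) males (2 libraries) and from males whose germ line lacked Dicer (2 libraries) or Drosha (3 libraries) by conditional knockout (cKO). The knockouts were made with loxP alleles and a Cre line that the labels do not name. WT oocytes were taken from superovulated females in 1 library. 2PN embryos, which hold the maternal and the paternal pronucleus after fertilisation, were made by injecting WT, Dicer cKO or Drosha cKO sperm, with 1 library each. Nothing in the labels ties a library to an animal or a pool, so p-values measure only the spread between these libraries, which may be technical.

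The hairpins of the cluster are cut from a common primary transcript. Drosha releases such hairpins in the nucleus and Dicer cuts them to mature miRNAs in the cytoplasm, and cells without either enzyme make no canonical miRNAs. The cluster is best known from sensory organs: it is abundant in hair cells of the inner ear, in photoreceptors and in olfactory neurons, and changes in the seed of miR-96 cause hearing loss. It is also raised in many epithelial tumours. In mouse oocytes miRNAs are present, but repression by canonical miRNAs is weak, and oocytes that cannot make them still mature.

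The mature sequences are shown because the 3 members act through similar but not identical seeds, and because the results turn on whether reads of 1 member could be taken for another; how reads that match several members were counted is not stated. Bases 2 to 8, the seed, are in capitals (RefSeq, GRCm38.p6, all on the minus strand).
mmu-miR-183-5p: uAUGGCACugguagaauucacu
mmu-miR-96-5p: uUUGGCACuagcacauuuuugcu
mmu-miR-182-5p: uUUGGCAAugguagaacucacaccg
They lie at chr6:30169711-30169732, chr6:30169506-30169528 and chr6:30165962-30165986. The seeds of miR-96-5p and miR-182-5p differ at 1 base, those of miR-183-5p and miR-96-5p at 1 base, and those of miR-183-5p and miR-182-5p at 2 bases. miR-96-5p and miR-182-5p share bases 2 to 7. Aligned without gaps, miR-183-5p and miR-182-5p are the closest pair of the cluster, with 4 differences over 22 bases and a longest shared run of 8 bases. The other pairs differ at 9 of 22 and 11 of 23 bases. Among the 1679 mature mouse miRNA names in the RefSeq table, 1 further miRNA, miR-1271-5p, has the seed of miR-96-5p; it was not analysed here.

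In the order of transcription Mir183 (chr6:30169668-30169737) comes first, Mir96 (chr6:30169446-30169551) follows after 116 bases, and Mir182 (chr6:30165918-30165992) after another 3453. The 3 hairpins span 3820 bases and lie within the annotated span of the long non-coding RNA gene Mirc35hg (chr6:30158640-30174125). The hairpin of miR-183 is printed with its 5p arm in capitals, since the 3p arm of this hairpin had 27 reads in sperm libraries, all from cKO males, and 1 in the oocyte and 2PN libraries.
Mir183: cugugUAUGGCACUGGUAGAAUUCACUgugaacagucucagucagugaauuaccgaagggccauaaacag

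Listed reads numbered 73377 and 278890 for WT sperm, 122989 and 108141 for Dicer cKO and 12003 to 100934 for Drosha cKO. There were 5530 for the oocyte and 2951 to 8967 for the 2PN libraries. Levels are given as CPM, reads scaled to the listed total of the library, and as RPM, the authors' own scaling, which divides by a larger library number of unstated meaning. The listed total was 2.11% to 10.1% of that number for sperm and 0.196% to 0.737% for the oocyte and embryos, so a difference between sperm and oocyte libraries depends in size on the scale. Intervals of shares are exact (Clopper-Pearson) 95% intervals, and those of ratios come from the same interval on the pair of counts. They and all limits from 0 reads cover counting error only, since reads carry no molecular identifiers.

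In the oocyte and in all 3 kinds of 2PN embryo miR-183-5p was the second most abundant small RNA of the table, while its cluster partners stood at a few reads. miR-183-5p took 1412 of 5530 listed reads in the WT oocyte library, or 25.5% (95% interval 24.4 to 26.7). It took 649 reads or 20.0% in 2PN embryos from WT sperm, 528 reads or 17.9% in those from Dicer cKO sperm and 2493 reads or 27.8% in those from Drosha cKO sperm. Only miR-30c-5p had more reads in each of these libraries. In sperm the same miRNA never passed 0.227% of listed reads, and it ranked between 67 and 190.

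**Figure D1:**
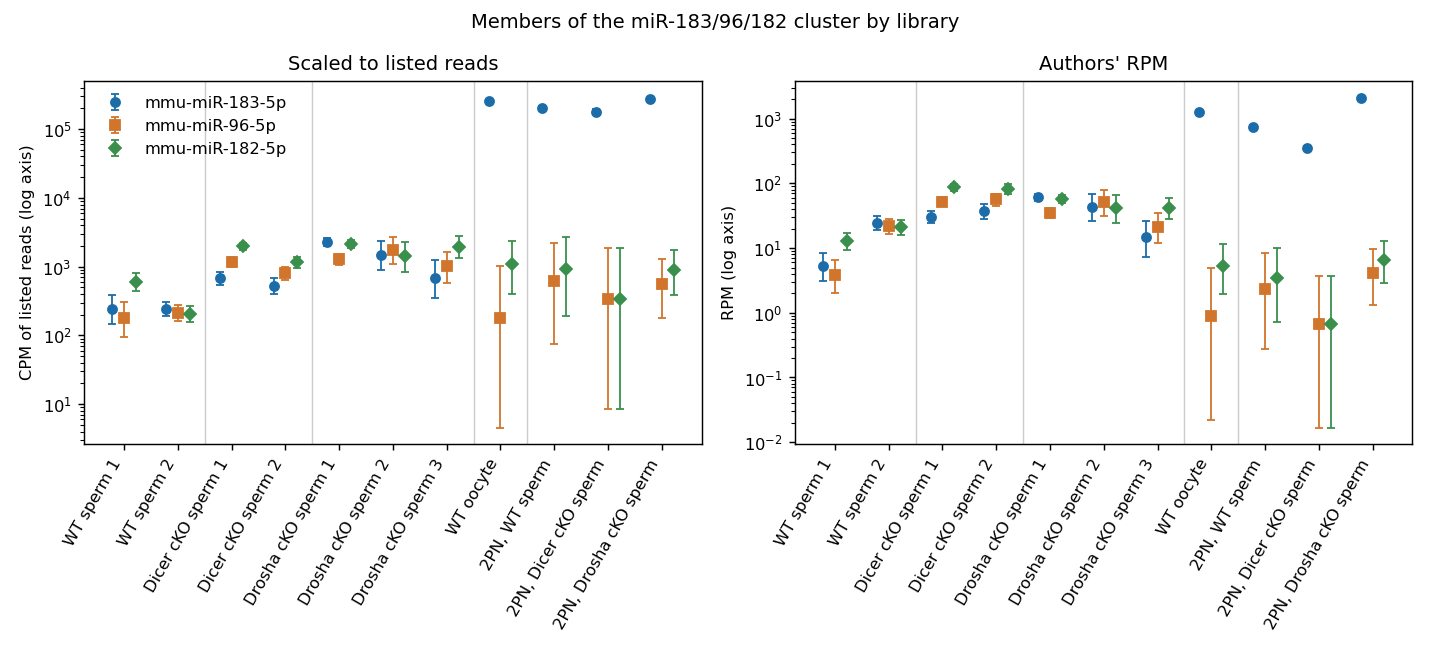
Level of the 3 members in each library on log axes, as CPM of listed reads (left) and as the authors' RPM (right); points are libraries and bars are exact 95% counting intervals. miR-183-5p lies at 178922 CPM or more in the oocyte and 2PN libraries and at 2269 CPM or less in sperm, whereas miR-96-5p and miR-182-5p reach at most 1750 and 2130 CPM in any library.

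Against WT sperm the oocyte level of miR-183-5p was 1041-fold higher in CPM with WT sperm replicate 1 (exact interval 656 to 1761) and 1047-fold higher with replicate 2 (821 to 1356). On the RPM scale these ratios were 236-fold and 50.9-fold. The size of the difference therefore depended on the scale and the direction did not. Over the 203 features with at least 50 reads in any of the 3 libraries the median ratio of oocyte to mean WT sperm CPM was 0.832, with counts below 3 set to 3. Only 14 of the 203 had 50 reads or more in the oocyte library. Most thus entered through WT sperm, where they are high, and this median is no benchmark for miR-183-5p. With 1 oocyte library there is no replicate check on the difference of miR-183-5p. In bulk samples fewer cells of a type and less RNA per cell cannot be told apart.

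miR-96-5p, the member whose seed is tied to hearing, had 1 read in the oocyte library. It had 2, 1 and 5 reads in 2PN embryos made with WT sperm, with Dicer cKO sperm and with Drosha cKO sperm, respectively. In CPM its oocyte level was 1.02 times that of WT sperm replicate 1 (interval 0.0240 to 6.80) and 0.841 times that of replicate 2 (0.0209 to 4.87), so on this scale no difference was detectable at this depth. In RPM the ratios were 0.231 (0.00545 to 1.54) and 0.0409 (0.00102 to 0.237), on the same single oocyte read, and the second interval lies below 1.

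miR-182-5p, the last hairpin in the order of transcription, had 6 reads in the oocyte library and 3, 1 and 8 reads in the 2PN libraries in the same order. Its oocyte CPM was 1.81 times that of WT sperm replicate 1 (interval 0.630 to 4.26) and 5.22 times that of replicate 2 (1.84 to 12.1). On the RPM scale the direction turned, to ratios of 0.410 (0.143 to 0.967) and 0.254 (0.0894 to 0.586). Neither partner was above WT sperm on both scales, as miR-183-5p was.

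**Figure D2:**
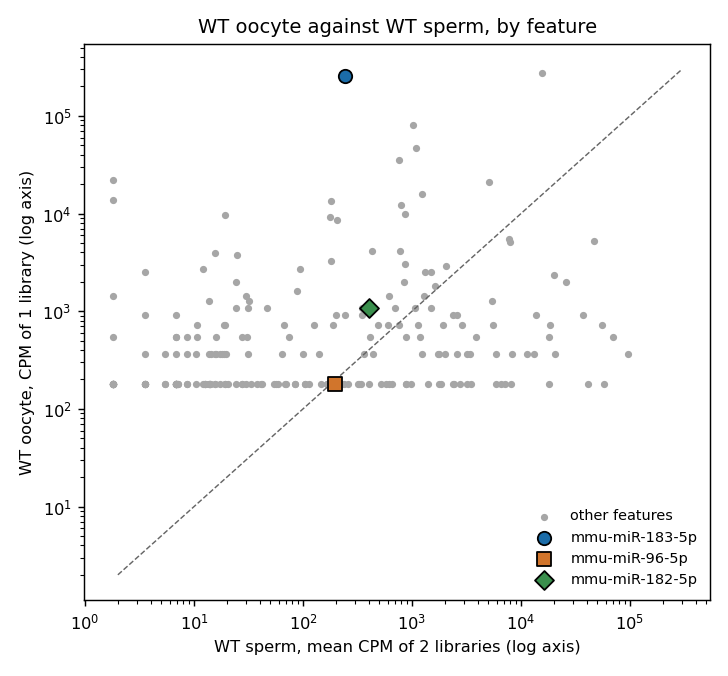
CPM of each feature in the WT oocyte library against its mean CPM in the 2 WT sperm libraries, on log axes, for features with reads in both; the dashed line marks equal values. miR-183-5p stands 1044-fold above the line, whereas miR-96-5p and miR-182-5p lie near it, on 1 and 6 oocyte reads.

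The split of reads among the members within a library needs no scaling between libraries. miR-183-5p made up 99.5% of the member reads in the oocyte library (exact interval 99.0 to 99.8) and 99.2% to 99.6% in the 2PN libraries. In WT sperm it made up 24.0% (14.9 to 35.3) and 36.6% (29.6 to 43.9), against 17.8% and 21.2% for Dicer cKO sperm. The Drosha cKO libraries had 40.0%, 32.1% and 19.0%. No interval of a sperm library reached above 46.0%, and none of an oocyte or 2PN library reached below 98.2%. Put as ratios, there were 1412 reads of miR-183-5p per read of miR-96-5p in the oocyte library, and 0.579 to 1.78 in the sperm libraries.

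**Figure D3:**
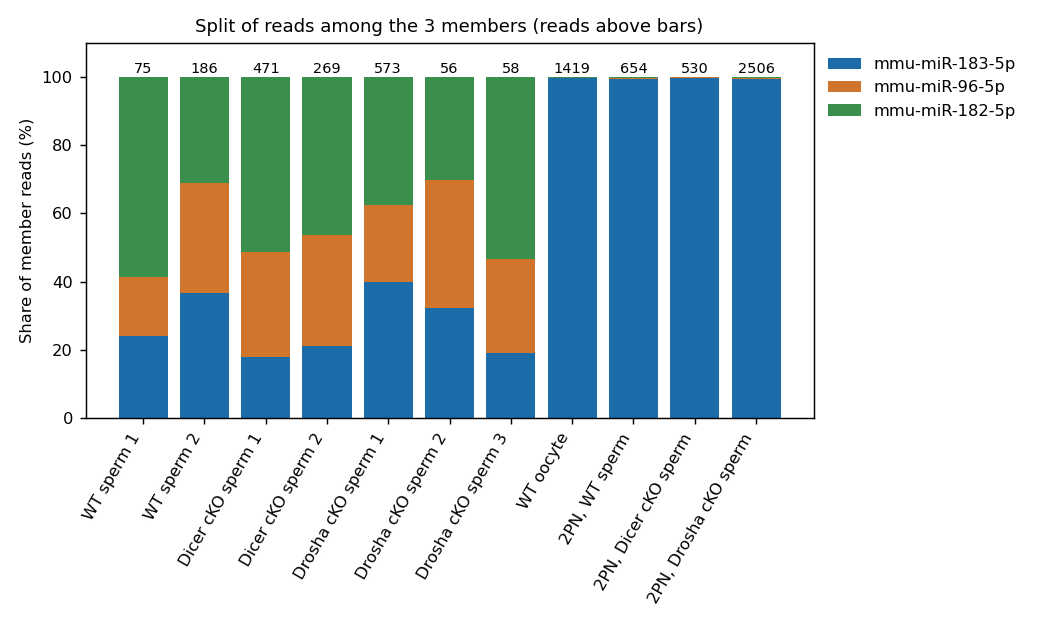
Share of the reads of the 3 members that each took within a library (%), with the number of member reads above each bar. The oocyte and 2PN bars are almost wholly miR-183-5p, whereas in sperm its share runs from 17.8% to 40.0%.

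Among the sperm groups the split also varied between libraries of 1 group. miR-182-5p took 58.7% of member reads in WT replicate 1 and 31.2% in WT replicate 2. The Dicer cKO libraries had 51.4% and 46.5%, the Drosha cKO libraries 37.5%, 30.4% and 53.4%. For miR-96-5p the shares were 17.3% and 32.3% (WT), 30.8% and 32.3% (Dicer cKO), and 22.5%, 37.5% and 27.6% (Drosha cKO). The highest share of miR-183-5p in Dicer cKO sperm, 21.2%, lay above the lowest in Drosha cKO sperm and below both WT values. No test was made of the split between sperm groups.

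The 3p arm, the other strand of each hairpin, was rare throughout. miR-183-3p had 27 reads over all sperm libraries against 485 reads of the 5p arm, and 1 read over the oocyte and 2PN libraries against 5082. In single libraries it made up 10.6% of the reads of its hairpin in Dicer cKO replicate 1 (exact interval 5.22 to 18.7), 3.39% in Dicer cKO replicate 2 (0.413 to 11.7) and 6.15% in Drosha cKO replicate 1 (3.48 to 9.94). It had 0 reads in both WT sperm libraries, which allows a share of up to 16.7% and 4.41%, and 0 in the 2 shallow Drosha cKO libraries. In the oocyte library 0 reads beside 1412 of the 5p arm allow a share of up to 0.212%, and in 2PN embryos from Drosha cKO sperm the limit is 0.120%. In 2PN embryos from Dicer cKO sperm the limit is 0.568%, and in those from WT sperm the share was 0.154% (0.00389 to 0.854). A limit from 0 reads is here 3 reads over the reads of the hairpin. The intervals of Dicer cKO replicate 1 and Drosha cKO replicate 1 began above the limits or interval of the oocyte and all embryo libraries. That of Dicer cKO replicate 2 began only above the limits of the oocyte and the embryos from Drosha cKO sperm. None of the 3 began above both WT sperm limits, so no difference from WT sperm was shown. miR-96-3p had 3 reads in all, from WT sperm replicate 2, and miR-182-3p had 2.

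The next comparison asked how the members differ between embryos and the oocyte, and between embryos made with different sperm. miR-183-5p in 2PN embryos from WT sperm stood at 0.784 times its oocyte CPM (exact interval 0.713 to 0.861) and at 0.600 times its oocyte RPM. Embryos from Dicer cKO sperm had 0.894 times the CPM of those from WT sperm (0.796 to 1.004, which includes 1). Embryos from Drosha cKO sperm had 1.39 times (1.27 to 1.52). In RPM these ratios were 0.469 and 2.74, in the same directions and farther from 1. Medians of the CPM ratio were taken over features with at least 50 reads in either library, with counts below 3 set to 3. They were 0.890 for embryos over oocyte (14 features), 0.629 for Dicer cKO (8 features) and 1.39 for Drosha cKO (13 features). For Drosha cKO miR-183-5p was itself the median feature. All 13 features there had 50 reads or more in the embryos from Drosha cKO sperm, while 8 features had so many in those from WT sperm. For embryos over oocyte 8 of the 14 had so many in the embryo library, and for Dicer cKO 6 of the 8 in the Dicer cKO library. Some features thus entered only through the library where they are high, and these medians are no benchmark for miR-183-5p. Without replicates all these ratios compare single libraries and not conditions.

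The ratio of miR-183-5p to miR-30c-5p, the leading miRNA of these libraries, is free of scaling. It was 0.935 in the oocyte (exact interval 0.869 to 1.01), 0.905 in 2PN embryos from WT sperm (0.813 to 1.01) and 0.947 in those from Drosha cKO sperm (0.896 to 1.001). In embryos from Dicer cKO sperm it was 0.469 (0.422 to 0.520), on 528 and 1126 reads. That library stood apart from the other 3, whose intervals overlap, and miR-30c-5p took 38.2% of its listed reads, against 22.1% to 29.4% in the others. In the 7 sperm libraries the ratio lay between 0.0132 and 0.412.

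For miR-96-5p and miR-182-5p no fold is given between 2PN embryos from Dicer cKO and WT sperm, since their counts there were 3 or fewer. Between embryos from Drosha cKO and WT sperm the CPM ratio was 0.904 for miR-96-5p (5 against 2 reads, interval 0.148 to 9.49) and 0.964 for miR-182-5p (8 against 3 reads, 0.231 to 5.64). In RPM these ratios turned to 1.78 (0.292 to 18.7) and 1.90 (0.456 to 11.1), so no direction can be given for either.

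In sperm all 3 members were scarce in WT and had higher CPM in every cKO library. Scaled to library totals, the median of all features tested also rose against WT, by 0.62 for Dicer cKO and 1.04 for Drosha cKO on the log2 scale. The share of all features whose groups did not overlap was not counted, in CPM or in RPM. Whether the lack of overlap given below is particular to the members is therefore not known. miR-183-5p stood at 245.3 and 243.8 CPM in WT (18 and 68 reads), at 683 and 527 CPM with Dicer cKO and at 2269, 1500 and 691 CPM with Drosha cKO. The 3 groups did not overlap, and the Drosha cKO libraries were the most spread, with the lowest value resting on 11 reads. miR-96-5p stood at 177 and 215 CPM in WT, at 1179 and 805 CPM with Dicer cKO and at 1278, 1750 and 1005 CPM with Drosha cKO. Both cKO groups lay above WT and overlapped each other.

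miR-182-5p stood at 600 and 208 CPM in WT, on 44 and 58 reads. It stood at 1968 and 1156 CPM in Dicer cKO and at 2130, 1416 and 1947 CPM in Drosha cKO sperm. The WT libraries were farther apart for this member than for the other two, and still below all cKO libraries, which overlapped between the knockouts.

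On the authors' RPM scale the separation of the Drosha cKO group was partial. miR-183-5p had 5.29 and 24.5 RPM in WT, 30.2 and 37.0 RPM with Dicer cKO and 61.2, 43.6 and 14.6 RPM with Drosha cKO, so that Drosha cKO replicate 3 lay below WT replicate 2. miR-96-5p had 3.82 and 21.6 RPM in WT, 52.2 and 56.4 RPM with Dicer cKO and 34.5, 50.9 and 21.2 RPM with Drosha cKO, with the same overlap. miR-182-5p had 12.9 and 20.9 RPM in WT, 87.1 and 81.1 RPM with Dicer cKO and 57.4, 41.2 and 41.1 RPM with Drosha cKO. For miR-182-5p the groups did not overlap, and the Dicer cKO level was the higher of the cKO levels.

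Ordered by mean CPM, miR-183-5p was lowest in WT sperm, followed by Dicer cKO sperm and Drosha cKO sperm, then by 2PN embryos from Dicer cKO sperm, from WT sperm, the oocyte and 2PN embryos from Drosha cKO sperm. Neighbours in this order overlapped, by range or counting interval, only for the 2PN embryos from Dicer cKO and WT sperm. For miR-96-5p the order ran from the oocyte and WT sperm through the 2PN embryos to Dicer cKO and then Drosha cKO sperm, and every neighbour overlapped the next. For miR-182-5p every neighbour overlapped as well, with 2PN embryos from Dicer cKO sperm lowest and Drosha cKO sperm highest. In RPM the order of these 2 members was another. Dicer cKO sperm was highest, at a mean of 54.3 RPM for miR-96-5p and 84.1 RPM for miR-182-5p, above Drosha cKO sperm at 35.5 and 46.6 RPM without overlap. The means of all sperm groups lay above the oocyte and every 2PN library in RPM, although WT sperm overlapped its lower neighbour, the 2PN embryos from Drosha cKO sperm, for both members. For miR-183-5p the order in RPM was that in CPM, with Dicer cKO and Drosha cKO sperm overlapping.

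Whether the sperm differences exceed the spread between libraries was tested with edgeR's quasi-likelihood test on the counts of all 7 sperm libraries, with TMM scaling factors and Benjamini-Hochberg adjustment over the 335 features that passed the low-count filter. All 3 members passed the filter. The TMM factor of WT replicate 2 was 0.497 against 0.899 for replicate 1, so fitted changes are smaller than ratios of CPM. Dicer cKO against WT asks what the sperm small RNA content owes to germ line Dicer. In this comparison 0 of 3 members passed at an adjusted p of 0.05, where 16.1% of all features were called higher. At an unadjusted p of 0.05, 2 of the 3 would pass, beside 175 of the 335 features tested in either direction. miR-96-5p stood 1.55 higher on the log2 scale (SE 0.659, 95% interval 0.15 to 2.95, edgeR adjusted p = 0.0640) and miR-182-5p 1.46 higher (SE 0.624, 0.14 to 2.78, edgeR adjusted p = 0.0658). miR-183-5p stood 0.57 higher (SE 0.692, −0.89 to 2.04, edgeR adjusted p = 0.524). The members' median of 1.46 compares with 0.03 over all features tested. DESeq2 also called 0 of 3, and limma on log2(RPM + 1) called miR-96-5p and miR-182-5p (adjusted p = 0.0353 and 0.0394). edgeR called both as well with library totals alone, and with only the groups compared in the fit (adjusted p = 0.0174 and 0.0405). Both also passed without Drosha cKO replicate 1 (edgeR adjusted p = 0.0413 and 0.0389) or replicate 2 (0.0357 and 0.0428), and miR-96-5p passed without replicate 3 (0.0493). Without Dicer cKO replicate 1 the changes shrank to 0.97 for miR-96-5p and 0.58 for miR-182-5p (edgeR adjusted p = 0.553 and 0.731), and that of miR-183-5p to 0.07 (0.992). Without WT replicate 2 miR-182-5p stood at 0.64 (edgeR adjusted p = 0.535). Without WT replicate 1 miR-183-5p stood at 0.23 (0.867).

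In Drosha cKO sperm against WT all 3 members rose, beside 22.1% of all features tested, each by a narrow margin. The log2 change was 1.72 for miR-96-5p (SE 0.636, 95% interval 0.37 to 3.07, edgeR adjusted p = 0.0310). It was 1.66 for miR-183-5p (SE 0.669, 0.25 to 3.08, edgeR adjusted p = 0.0445) and 1.45 for miR-182-5p (SE 0.594, 0.19 to 2.71, edgeR adjusted p = 0.0486). The median over the members was 1.66 and over all features 0.05. These calls rested on the settings: of 19 alternatives, miR-96-5p was called in 7, miR-183-5p in 6 and miR-182-5p in 3, with a positive change in all 19. All 3 calls were lost without WT replicate 1 (adjusted p = 0.457, 0.398 and 0.201 for miR-96-5p, miR-183-5p and miR-182-5p), and without WT replicate 2 (0.0679, 0.111 and 0.540). They were lost too without Dicer cKO replicate 1 (0.260, 0.256 and 0.476) and without Dicer cKO replicate 2 (0.232, 0.232 and 0.430). Without Drosha cKO replicate 1 only miR-96-5p was called (edgeR adjusted p = 0.0364, against 0.145 and 0.0747 for miR-183-5p and miR-182-5p), and without Drosha cKO replicate 3 the call of miR-182-5p was lost (0.0547). With the authors' divisor as library size none was called, and DESeq2 called all 3.

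The scaling moved all features together. With library totals in place of TMM factors the median of all features was 0.62 for Dicer cKO and 1.04 for Drosha cKO against WT. Relative to these medians miR-183-5p, miR-96-5p and miR-182-5p stood 0.69, 1.70 and 1.37 higher in Dicer cKO and 1.60, 1.71 and 1.20 higher in Drosha cKO sperm. The share of called features that were higher was 34.2% with TMM and 52.6% with library totals for Dicer cKO, and 40.0% and 60.1% for Drosha cKO. With the authors' divisor it was 18.4% for Drosha cKO.

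**Figure D4:**
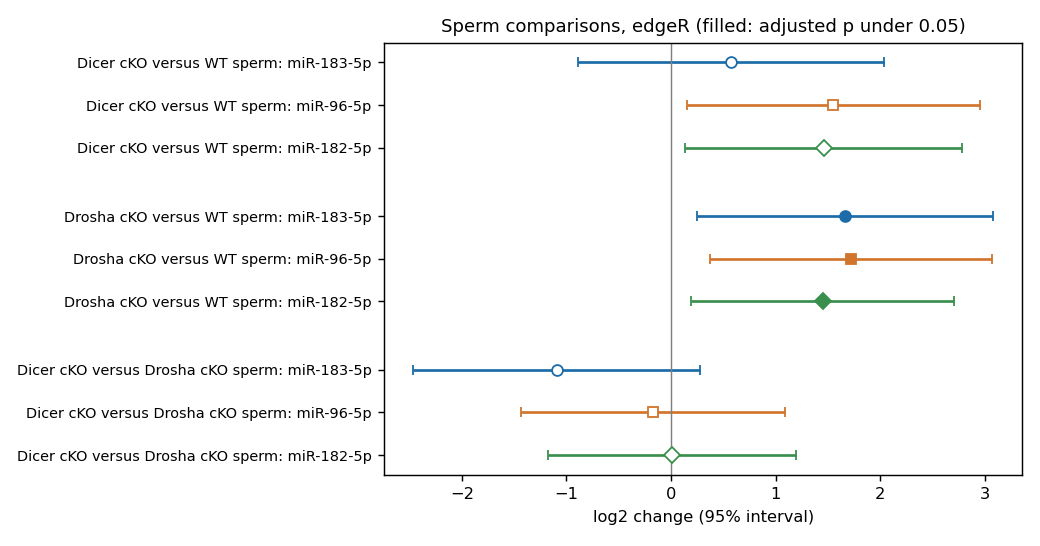
Log2 change of each member in the 3 sperm comparisons by edgeR, with 95% intervals; filled symbols have an adjusted p under 0.05. The 3 Drosha cKO changes lie between 1.45 and 1.72 and are filled, and the Dicer cKO changes of miR-96-5p and miR-182-5p, at 1.55 and 1.46, are open.

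The comparison of Dicer cKO with Drosha cKO sperm tests directly whether the knockouts differ. Neither any member nor any other feature was called (0.0% of 335 by edgeR; 65 features and 0 members had an unadjusted p under 0.05). The count of features moved with the setting. DESeq2 called 18, limma on log2(RPM + 1) called 2, and edgeR called 13 with library totals, 31 with only the groups compared, 36 without WT replicate 1 and 39 without WT replicate 2. No member was among those called under any of the 19 alternatives. The log2 difference, Dicer cKO minus Drosha cKO, was −1.09 for miR-183-5p (95% interval −2.47 to 0.28, edgeR adjusted p = 0.365), −0.17 for miR-96-5p (−1.43 to 1.09) and 0.01 for miR-182-5p (−1.18 to 1.19). These intervals leave room for differences of more than 2-fold in either direction for miR-96-5p and miR-182-5p. The 2 comparisons with WT share the WT libraries, so a call in 1 and not in the other is no difference between the knockouts. With the authors' divisor miR-96-5p and miR-182-5p stood at 0.62 and 0.84, where the median of all features stood at 0.94.

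**Figure D5:**
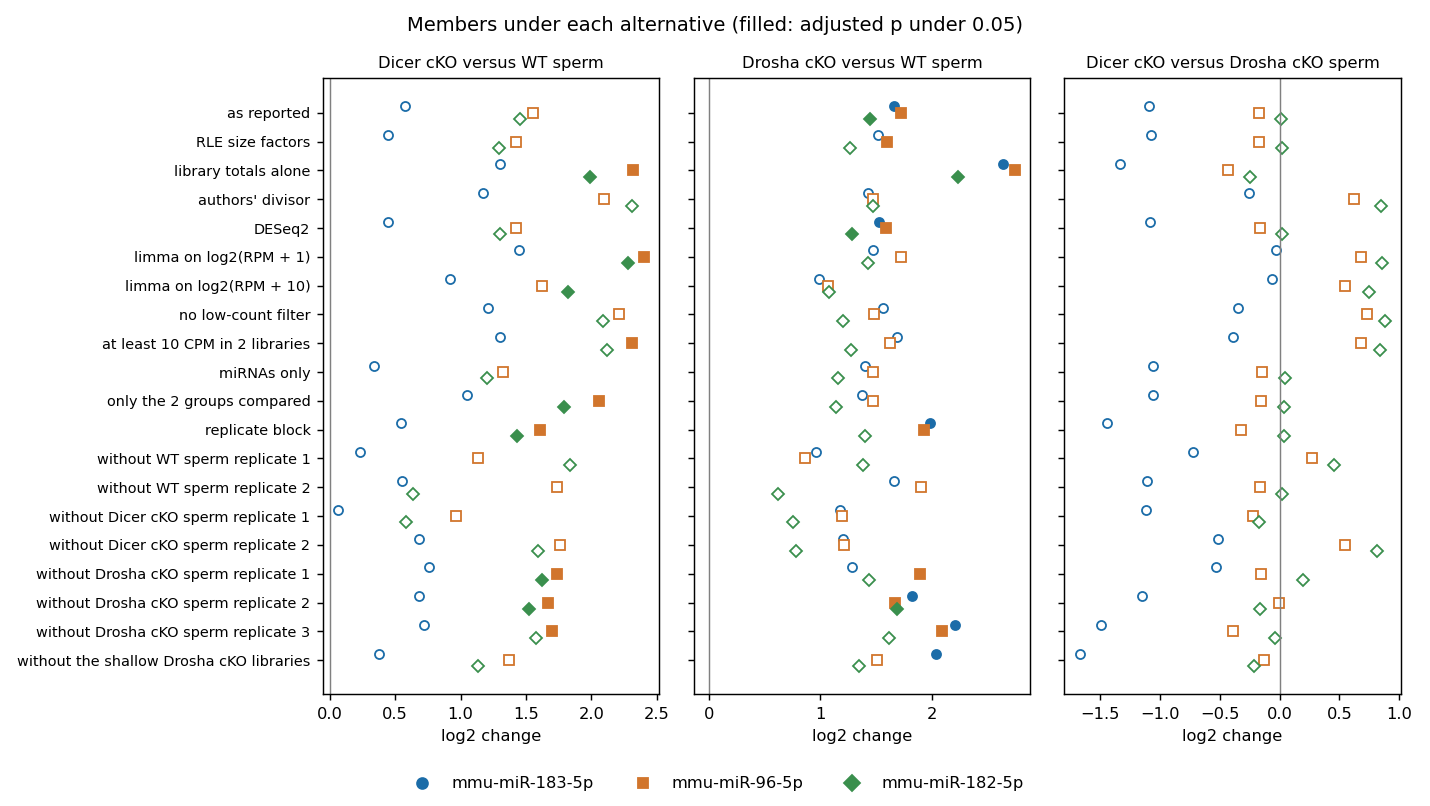
Log2 change of each member in the 3 sperm comparisons under each alternative setting; filled symbols have an adjusted p under 0.05. In both comparisons with WT every point lies above 0 (from 0.07 to 2.40 for Dicer cKO and 0.62 to 2.74 for Drosha cKO), while which symbols are filled depends on the setting.

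Markers of other cells moved in the same sperm libraries. Counts that rose or fell have an edgeR adjusted p under 0.05. Of all features tested, 16.1% were called higher and 31% lower in Dicer cKO against WT, and 22.1% and 33.1% in Drosha cKO. The 11 epithelial miRNAs of the list (the miR-200 and miR-141 group, miR-205-5p and miR-203-3p) made up 1.71% and 1.87% of listed reads in WT sperm. Their share was 13.8% to 16.5% with Dicer cKO and 11.6% to 14.5% with Drosha cKO. Of 9 tested, 8 rose in each comparison with WT and 0 fell, with medians of 2.50 for Dicer and 1.90 for Drosha. miR-200c-3p, the most abundant of them, changed by 2.24 and 1.84 (edgeR adjusted p = 0.000787 and 0.00181). The 9 male germ cell miRNAs, among them miR-34b-5p and miR-34c-5p of the miR-34 family, made up 16.6% and 18.3% in WT sperm, against 0.850% to 0.886% with Dicer cKO and 1.42% to 2.50% with Drosha cKO. All 9 fell in both comparisons, with medians of −4.99 and −4.18. The members' changes of 0.57 to 1.72 thus had the sign of the epithelial list and were smaller than its medians. The blood and stromal lists, given next, had medians of the same sign, so the sign does not single out the epithelial list. The lowest change, that of miR-183-5p in Dicer cKO, had an interval that includes 0.

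Blood cell miRNAs made up 0.527% and 0.542% in WT, 5.16% to 5.17% with Dicer cKO and 2.26% to 2.56% with Drosha cKO, and of 8 tested 5 rose in Dicer cKO, while in Drosha cKO 4 rose and 1 fell. Stromal miRNAs summed to 0.341% and 0.848%, 1.94% to 2.72% and 1.12% to 1.76%, and of 6 tested 2 rose in Dicer cKO and 0 in Drosha cKO. The median log2 changes for Dicer cKO and Drosha cKO were 2.55 and 1.72 for the blood list and 0.89 and 0.41 for the stromal list. Beside these counts stand the 16.1% and 22.1% of all features called higher. Of the 9 blood miRNAs listed, 8 were matched to the table and 1 was not analysed here. Each matched marker of the epithelial, blood and germ cell lists had reads in each sperm group. The part of other cells in the members' sperm levels was not tested. In the oocyte and 2PN libraries the epithelial list summed to at most 0.0617% of listed reads. miR-205-5p was at 0 in all 4 of these libraries, and miR-200c-3p was at 0 in the oocyte and in 2PN embryos from WT and Dicer cKO sperm. The high miR-183-5p level there stood beside epithelial markers at or near 0, in libraries where 3 reads are 334.6 to 1016.6 CPM. The part of other cells in that level was not tested.

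Across the 7 sperm libraries each member had at least 3 features outside the cluster that followed it more closely than the other members did. Likeness was measured as Pearson's r of log2(CPM + 10), among 155 features outside the cluster whose mean was 500 CPM or more. The points share library, depth and knockout status, and the values are descriptions. The r was 0.885 between miR-183-5p and miR-96-5p, 0.860 between miR-96-5p and miR-182-5p and 0.776 between miR-183-5p and miR-182-5p. Outside the cluster, the most alike to miR-183-5p were miR-3473b (0.928), let-7d-5p (0.896), miR-1195 (0.892) and miR-6240 (0.873), the last of which lay below miR-96-5p. Those most alike to miR-96-5p were let-7g-5p (0.981), let-7f-5p (0.967), let-7b-5p (0.966) and miR-148a-3p (0.961). For miR-182-5p they were miR-205-5p (0.978), an epithelial miRNA, miR-125b-5p (0.973), miR-187-3p (0.964) and miR-31-5p (0.961). No feature outside the cluster stood in the first 4 of more than 1 member.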

How the data were processed

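Small RNA sequencing libraries of mouse sperm, oocytes and 2PN embryos were analysed from 2 deposited tables. The authors' raw table gives whole read counts per listed miRNA or endogenous siRNA. The authors' second table gives RPM, which equals these counts divided by 1 number per library between 412523 and 3743577. Bowtie and the mm10 build are named in the submitters' processing notes; the counting rule, the treatment of reads that match several miRNAs and the miRNA release are not stated there. Groups and replicate numbers were taken from the labels.

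Sperm counts were tested with edgeR 4.0.16 (TMM, default low-count filter, quasi-likelihood test, all 7 sperm libraries, Benjamini-Hochberg adjustment, threshold 0.05). The same fit was also run on simulated counts with the same dispersion for every feature, and no result here rests on that run. DESeq2 1.42.0, limma 3.58.1 on log2(RPM + 1) or log2(RPM + 10), other scalings and filters, a replicate block and leaving out libraries were the alternatives. Oocyte and 2PN libraries, 1 per group, were described with exact intervals of counts and no test between groups. Replicates differed by more than counting noise (chi-square per degree of freedom 5.74 to 42.0), so none was merged. A ratio of counts that were both at or under the floor of 3 reads was not given. The named features were the members, their 3p arms, seed relatives, the 4 most alike features per member and up to 4 abundant members of each marker list. Members and lists were chosen with earlier results of these data known. Mature and hairpin sequences and positions came from RefSeq (GRCm38.p6).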

Additional observations from a re-analysis of the deposited data

Results flagged for a closer look

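For 3 results the direction of the CPM ratio in sperm and in the embryos made with that sperm was opposite. The difference between sperm and embryos was not tested in any of them, since each kind of embryo has 1 library. miR-183-5p in Dicer cKO against WT had a ratio of mean CPM of 2.47 in sperm and 0.894 in 2PN embryos. The exact interval of the embryo ratio, 0.796 to 1.004, includes 1. In RPM the ratios were 2.25 and 0.469. The fitted sperm change was 0.57 on the log2 scale (edgeR adjusted p = 0.524). miR-96-5p in Drosha cKO against WT had 6.85 in sperm and 0.904 in 2PN embryos (0.148 to 9.49). miR-182-5p in the same comparison had 4.53 in sperm and 0.964 in 2PN embryos (0.231 to 5.64). The last pair rests on 8 reads or fewer per embryo library, and in RPM their embryo ratios were 1.78 and 1.90, against 2.79 and 2.75 in sperm, so their directions no longer differed. The fitted log2 changes in sperm were 1.72 for miR-96-5p and 1.45 for miR-182-5p.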

How the results depend on the processing

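In both cKO comparisons with WT each member kept its sign under all 19 alternatives, and miR-183-5p in Dicer cKO was called under none. Values below are log2 changes.

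For Dicer cKO against WT, miR-96-5p and miR-182-5p became significant with library totals (2.32 and 1.99), limma on log2(RPM + 1) (2.40 and 2.28) and only the groups compared (2.06 and 1.79), so 2 members were called. With limma on log2(RPM + 10) only miR-182-5p was called (1.82) and with at least 10 CPM in 2 libraries only miR-96-5p (2.31), 1 member each. Leaving out single libraries gave 0.07 to 0.75 for miR-183-5p, 0.97 to 1.76 for miR-96-5p and 0.58 to 1.84 for miR-182-5p, with 0 to 2 members called.

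For Drosha cKO against WT, significance was lost for miR-183-5p, miR-96-5p and miR-182-5p with the authors' divisor (1.43, 1.47 and 1.47), limma on log2(RPM + 1) (1.47, 1.72 and 1.43) or log2(RPM + 10) (0.98, 1.07 and 1.08), no filter (1.56, 1.48 and 1.20), at least 10 CPM (1.69, 1.63 and 1.28), miRNAs only (1.40, 1.47 and 1.15) and only the groups compared (1.38, 1.47 and 1.14), leaving 0 members called. RLE factors lost miR-183-5p and miR-182-5p (1.52 and 1.27), leaving 1. Without the shallow Drosha cKO libraries miR-96-5p and miR-182-5p were lost (1.5 and 1.34), leaving 1. Leaving out single libraries gave 0.96 to 2.21, 0.86 to 2.09 and 0.62 to 1.68, with 0 to 3 called. The causes were not tested. Features called fell from 185 to 114 with the divisor, 101 with limma on log2(RPM + 10) and 112 without a filter.

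For Dicer cKO against Drosha cKO, miR-96-5p turned from −0.17 to 0.62 (divisor), 0.68 and 0.55 (limma with 1 and 10), 0.73 (no filter) and 0.68 (10 CPM), and miR-182-5p from 0.01 to −0.24 (library totals) and −0.21 (without the shallow libraries). Leaving out single libraries gave −1.49 to −0.52, −0.39 to 0.55 and −0.17 to 0.81. None was called.

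With the replicate block, miR-96-5p (1.61, edgeR adjusted p = 0.0333) and miR-182-5p (1.43, 0.0479) were called in Dicer cKO, 2 members, and miR-182-5p was lost in Drosha cKO (1.40, 0.0595), leaving 2. Deviations of libraries with the same number correlated at 0.163 to 0.323 across features, but the labels tie no number to an animal, so the block was not the reported fit.

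The summed members in oocyte over WT sperm were 303.8-fold by CPM, 28.2 by RPM, 299.1 by shares of miRNA reads and 251.0 to 384.7 without either WT library. Since miR-183-5p made up 99.5% of member reads in the oocyte library, this sum describes that member and not its partners. For 2PN over oocyte the sum stood at 0.786 by CPM and 0.601 by RPM. It stood at 0.891 and 0.467 for Dicer cKO over WT embryos, and at 1.39 and 2.73 for Drosha cKO over WT embryos. Without single libraries the miR-183-5p share was 24.0% to 36.6% (WT), 17.8% to 21.2% (Dicer cKO) and 25.6% to 36.1% (Drosha cKO). A floor of 3 reads is 10.8 to 249.9 CPM in sperm and 334.6 to 1016.6 CPM in oocyte and 2PN libraries, which limits what miR-96-5p and miR-182-5p can show there.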
